A study of Mus musculus with 6 samples.

Results

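Imprinted neuronal transcripts and nuclear long noncoding RNAs of the mouse brain were followed through 6 RNA sequencing libraries of the tissue labelled PFC. They are 10 transcripts chosen by symbol: the imprinted noncoding RNAs Meg3, Rian and Mirg, the imprinted coding genes Peg3, Snrpn, Ndn and Nnat, and the nuclear noncoding RNAs Malat1, Neat1 and Miat. All 10 were present in the 6 tables among 53640 shared gene symbols, and all 10 passed the filter on low counts among the 20694 genes tested. Treated tau mice carried the PS19 tau transgene with the P301S change and received WDR5-0103, a small molecule that binds WDR5, which is part of the enzyme complexes that place methyl groups on histone H3. Tau mice carried the same PS19 transgene and received vehicle. Control mice were of the C57BL/6 x C3H background and received vehicle. Each group had 2 libraries, described in the labels as biological duplicates, from mice aged 6 months, and the RNA came from a lysate of all cells of the tissue. In PS19 mice the human tau gene is driven by the mouse prion promoter, which is active in many cell types. The series asks whether lowering histone K4 trimethylation alters the brain in a mouse model of tau disease.

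Total counts were 34774643 and 27772812 in the treated tau libraries, 25685236 and 17690811 in the tau libraries, and 24525020 and 25264641 in the control libraries. Markers of excitatory cortical neurons were detected in every library, with sums of 2579 to 3137 CPM (TMM-scaled counts relative to library size). Some libraries stood apart. In the library labelled control 1 the 8 olfactory bulb markers summed to 204.1 CPM against 15.03 to 19.08 CPM in the other 5 libraries. Its 12 hypothalamic and ventral forebrain markers summed to 20.68 CPM against 3.332 to 4.176 CPM in the other 5. The Prnp level of this library, 1650 CPM, lay with the transgenic libraries (1470 to 1880 CPM) rather than with control 2 (876 CPM), against its label. Every direction drawn from control includes this library. In tau 2 the striatal markers summed to 400.5 CPM against 179.1 to 239.2 CPM elsewhere, and the oligodendrocyte markers to 5800 CPM against 1532 to 3096 CPM. By Xist and Ddx3y, both treated tau libraries were male, both tau libraries female, and the control libraries 1 of each, so in treated tau against tau the sex of the mice and the treatment cannot be told apart. Between treated tau and tau 3 of the 10 striatal markers were called lower, where 0.677% of all genes were, and 1 of the 8 endothelial and mural markers was called higher, where 3.09% were. All 10 transcripts come from autosomes. The tissue was measured in bulk, so fewer cells of a type and less RNA per cell cannot be told apart. The part of these differences in the results was not tested.

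Imprinted genes are expressed mainly from the copy inherited from one parent, and many are at their highest in the brain. Meg3, Rian and Mirg lie in a row on the maternally expressed strand of the Dlk1 to Dio3 domain, where a long stretch of noncoding transcription also carries clusters of small nucleolar RNAs and microRNAs. Peg3, Snrpn, Ndn and Nnat are expressed from the paternal copy. Malat1 and Neat1 are neighbouring nuclear RNAs: Malat1 gathers in nuclear speckles, which hold splicing factors, and Neat1 forms the core of paraspeckles. Miat is a nuclear RNA abundant in neurons.

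The 10 transcripts spanned a wide range of levels. Averages over the 6 libraries went from 33.84 CPM for Nnat to 6480 CPM for Malat1, values that also grow with the length of a transcript. Per kilobase of exon, which allows a rough comparison between genes, Malat1 had 928 ± 101 CPM per kb (SD over 6 libraries) and Snrpn 168 ± 16.9. The length takes in the exons of every annotated isoform and bases shared with other genes, such as 27.28% of Snrpn on the same strand. Reads from shared bases may not have been assigned, so the order of levels is approximate. Meg3 had 53.6 ± 6.33, Ndn 50.1 ± 3.46 and Peg3 42 ± 3.61 CPM per kb, ranges that overlap. Rian had 30.4 ± 3.8, Nnat 18.5 ± 1.99, Miat 16 ± 2.55, Mirg 5.95 ± 0.369 and Neat1 1.65 ± 0.192 CPM per kb, of which Nnat and Miat overlap. No transcript varied by more than 1.5 times between its highest and lowest library, a ratio reached by Miat, and Mirg varied least, by 1.18 times.

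**Figure D1:**
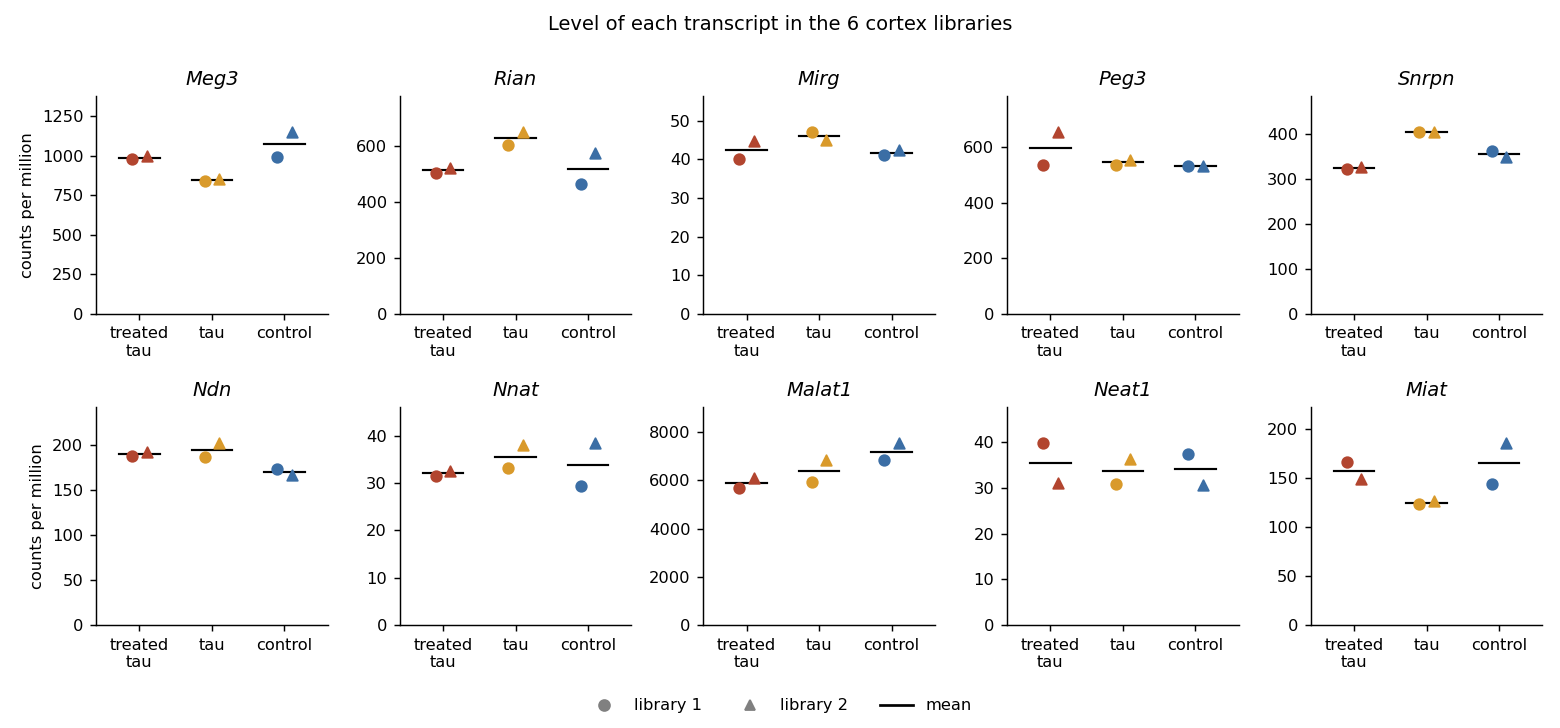
Level of each of the 10 transcripts in CPM (vertical axis, from 0), by library, in the groups treated tau, tau and control. Circles are library 1 and triangles library 2 of a group, and bars are group means of 2 libraries; Meg3 and Miat are lowest in both tau libraries, Rian and Snrpn highest there, and Malat1 is lowest in treated tau 1.

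One of the 30 tests of these transcripts passed. Snrpn fell in treated tau against tau, and the other 9 transcripts were not called in that comparison (adjusted p under 0.05, edgeR quasi-likelihood test with Benjamini-Hochberg adjustment over all genes tested). Among all genes 3.76% were called in treated tau against tau, 3.09% higher and 0.677% lower. A refit without the pseudogene rows called 67 of 18777 genes there, 33 higher and 34 lower, against 639 higher and 140 lower with them. None of the 10 was called in tau against control, where 0% of all genes were called, with 9.95% of all genes and 5 of the 10 transcripts at an unadjusted p under 0.05. DESeq2 called 55 genes in that comparison, Meg3 among them. None of the 10 was called in treated tau against control, where 4.22% of all genes were called, 3.32% higher and 0.899% lower. Without the pseudogene rows 63 of 18777 genes were called there, 33 higher and 30 lower. In tau against control 7 of the 10 had groups that did not overlap, against 41.6% of all genes; 5 were higher (Rian, Mirg, Peg3, Snrpn, Ndn; background 20.3%) and 2 lower (Meg3, Miat; 21.3%). In treated tau against tau 6 did not overlap, against 41.3% of all genes; 2 were higher (Meg3, Miat; background 21.2%) and 4 lower (Rian, Mirg, Snrpn, Nnat; 20.1%). In treated tau against control 4 did not overlap, against 46.3% of all genes; 2 were higher (Peg3, Ndn; background 23%) and 2 lower (Snrpn, Malat1; 23.3%).

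**Figure D2:**
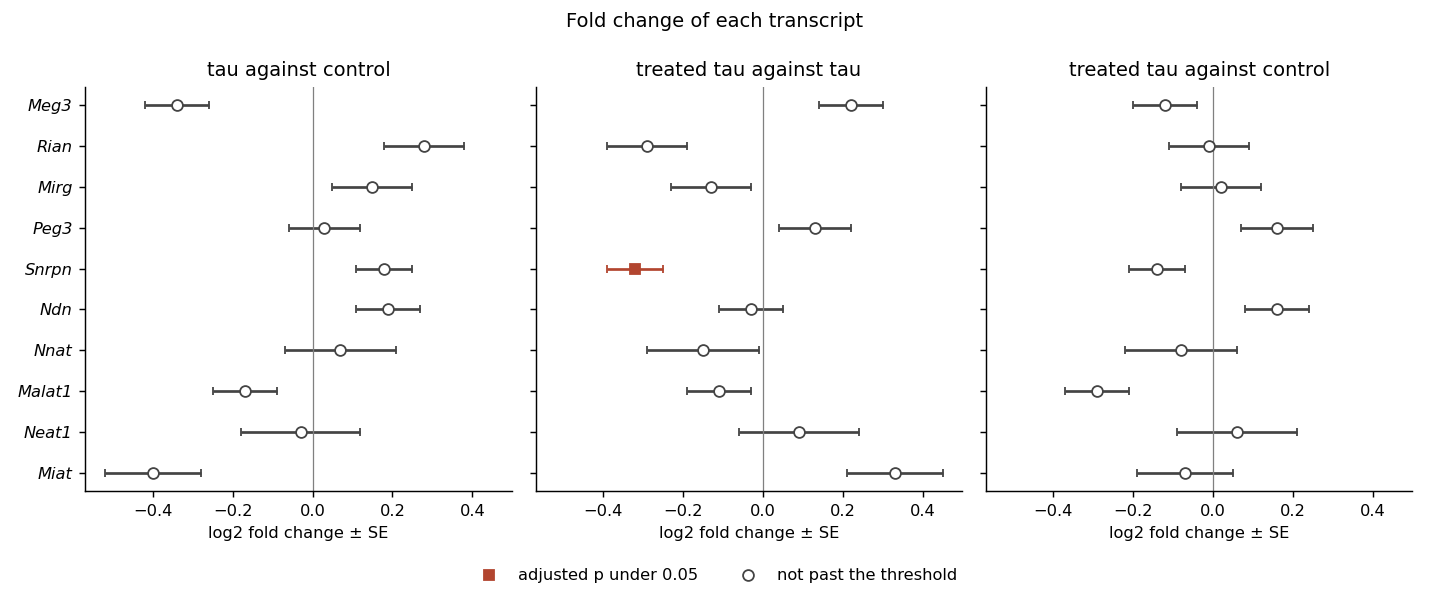
Log2 fold change with its standard error (horizontal axis) of each transcript in 3 comparisons, from the edgeR fit over 6 libraries. The single filled square is Snrpn in treated tau against tau at -0.32; open circles did not pass an adjusted p of 0.05.

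Meg3 (ENSMUSG00000021268.17) is a long noncoding RNA transcribed from chromosome 12, 109541001 to 109571726 on the plus strand of the mm10 build. It had 978.6 and 997.6 CPM in the treated tau libraries, 839.6 and 852.7 CPM in the tau libraries, and 995.2 and 1152 CPM in the control libraries. Both tau libraries were below all of the others. Tau against control gave a log2 fold change of -0.34 ± 0.08 (SE), with an adjusted p of 0.441 from edgeR. DESeq2, which gave an adjusted p for 7053 of the genes in that comparison, put Meg3 at 0.0374. The edgeR log2 fold change was -0.44 without the library labelled control 1 and -0.23 without control 2, each leaving 1 control library. Without the library labelled control 1 and tau 2 together it was -0.45, with only 1 library left in each of tau and control. For treated tau against tau it was 0.22 ± 0.08 (adjusted p = 0.24), and treated tau and control overlapped (-0.12 ± 0.08, adjusted p = 0.503). Gm27000, a noncoding gene on chromosome X that shares 4.04% of Meg3's 50-mers, had 24.7 and 27.1 CPM in treated tau, 18.9 and 19 CPM in tau, and 28.9 and 25.3 CPM in control, so its level was small beside that of Meg3.

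The promoter windows of Meg3 and Rian, which lie on the same strand, show how the starts differ. RefSeq (GRCm38.p6) lists windows of 250 bases before and 50 bases after a start for 9 of the 10 transcripts, 13 windows in all. Capitals mark every CG dinucleotide and, in full, the octamer TGACGTCA, the palindromic cyclic AMP response element.
Meg3 chr12:109540746-109541045, plus strand: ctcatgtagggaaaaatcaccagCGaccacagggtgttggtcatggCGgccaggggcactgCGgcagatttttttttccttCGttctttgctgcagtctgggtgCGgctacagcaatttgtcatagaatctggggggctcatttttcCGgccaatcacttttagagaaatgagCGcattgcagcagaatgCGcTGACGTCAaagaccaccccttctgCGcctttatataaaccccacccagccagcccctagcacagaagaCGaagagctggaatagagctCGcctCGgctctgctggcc
Rian chr12:109603695-109603994, plus strand: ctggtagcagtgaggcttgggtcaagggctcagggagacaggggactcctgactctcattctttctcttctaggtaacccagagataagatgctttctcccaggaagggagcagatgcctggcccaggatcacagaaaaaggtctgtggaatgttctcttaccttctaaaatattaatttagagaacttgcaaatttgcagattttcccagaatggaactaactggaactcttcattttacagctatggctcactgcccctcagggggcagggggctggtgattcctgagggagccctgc
The Meg3 window held 13 CG dinucleotides, and its octamer began at position -57 relative to the start. The Rian window held 0 CG and no octamer. Over all 32851 promoters of the same length the octamer, which reads the same on both strands, was found in 588, or 1.79%, and 37.9% had at least 13 CG. A second Meg3 start listed by RefSeq held 1 CG and no octamer. A match to these letters is a description of the window.

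Rian (ENSMUSG00000097451.10), a host of small nucleolar RNAs downstream of Meg3, spans chromosome 12, 109603940 to 109661716. Its level was 505.9 and 524 CPM in treated tau, 606.3 and 651.8 CPM in tau, and 464.3 and 574.6 CPM in control. Both tau libraries were above all of the others. The log2 fold change was 0.28 ± 0.1 for tau against control (edgeR adjusted p = 0.45). It was 0.13 without the library labelled control 1, 0.44 without control 2, and 0.08 without the library labelled control 1 and tau 2 together. It was -0.29 ± 0.1 for treated tau against tau (adjusted p = 0.222). The value for treated tau against tau passed when the fit held only the 2 groups compared (adjusted p = 0.0403), without the library labelled control 1 (0.0372) and without control 2 (0.0408). It did not pass when any 1 of the 4 libraries compared was left out (-0.34 to -0.23, adjusted p = 0.379 to 0.592) or without pseudogenes (-0.28, 0.448). Treated tau and control overlapped, at -0.01 ± 0.1.

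Mirg (ENSMUSG00000097391.8), the microRNA host at the far end of the interval, spans chromosome 12, 109729764 to 109749460. Treated tau had 39.98 and 44.63 CPM, tau 47.09 and 45.1 CPM, and control 41.08 and 42.3 CPM. Both tau libraries were the highest, by small margins, with a log2 fold change of 0.15 ± 0.1 against control (edgeR adjusted p = 0.618) and of -0.13 ± 0.1 for treated tau against tau (adjusted p = 0.727).

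The ratio of Rian to Meg3 within a library does not depend on the scaling between libraries. It was 51.7 and 52.5 Rian counts per 100 Meg3 counts in treated tau, 72.2 and 76.4 in tau, and 46.7 and 49.9 in control. Tau lay above both other groups, and treated tau above control, with no overlap. The mean log2 ratio differed by 0.62 between tau and control and by -0.51 between treated tau and tau. This ratio was chosen after its values were seen, and an exact two-sided permutation test gave p = 0.333 each time, the smallest that 2 libraries against 2 can give. Of the other transcripts tested between the starts of Meg3 and Mirg, a distance of 188.8 kb, Rtl1, the retrotransposon-derived coding gene on the opposite strand, had 14.96 and 13.87 CPM in treated tau, 16.07 and 18.28 CPM in tau, and 17.17 and 18.82 CPM in control. Gm37899, an unclassified transcript, had 20.66 and 21.55 CPM in treated tau, 28.28 and 28.03 CPM in tau, and 22.85 and 27.79 CPM in control. The lowest value of the interval for treated tau against tau was B830012L14Rik, a noncoding RNA, at -0.85 ± 0.31 (edgeR adjusted p = 0.264). None of these passed in any comparison.

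**Figure D3:**
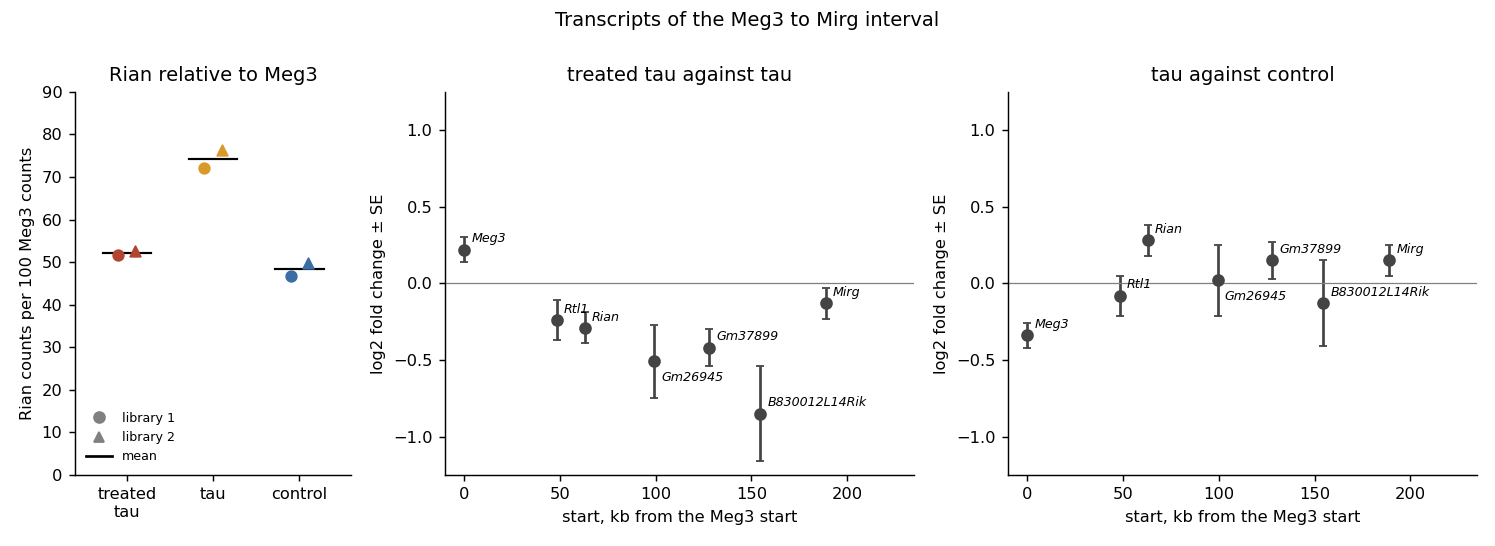
Left, Rian counts per 100 Meg3 counts by library (circles library 1, triangles library 2, bars group means of 2); middle and right, log2 fold change with its standard error of the 7 transcripts tested in the interval, placed by the distance of their lower coordinate from the Meg3 start in kilobases. Meg3 alone lies above 0 in treated tau against tau (0.22), and below 0 with Rtl1 and B830012L14Rik in tau against control.

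Within the Mirg span given above, which is that of GENCODE M21, RefSeq lists 26 mature microRNA sequences from 14 genes, with 25 different seeds. The RefSeq start window of Mirg, 109734731 to 109735030, begins after miR-134-5p (109734145 to 109734166). Which of these microRNAs are made from the Mirg transcript was not tested. The pair that shared a seed is printed first, followed by miR-541-5p, from a gene of high count in the tables, and miR-134-5p, known for its action in dendrites, from a gene at 0 in all of them. The seed, bases 2 to 8, is in capitals.
mmu-miR-453: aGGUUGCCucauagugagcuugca
mmu-miR-496a-5p: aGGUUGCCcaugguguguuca
mmu-miR-541-5p: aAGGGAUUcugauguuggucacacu
mmu-miR-134-5p: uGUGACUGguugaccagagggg
Counts assigned to Mir453 were 40 and 22 in treated tau, 26 and 16 in tau, and 28 and 27 in control. Mir541 had 30 and 18 counts in treated tau, 31 and 18 in tau, and 19 and 25 in control, and Mir134 had 0 in every library. These are counts of total RNA reads over the hairpin genes, and mature microRNAs were not measured. Over the whole interval 66 microRNA symbols were present, of which 21 were at 0 in all libraries. All 21 were among the 30 symbols that overlap an exon of another gene, and none of the 36 that overlap no exon was at 0. Some overlapping symbols were counted, such as Mir382 with 3 to 16 counts per library. Of the 23 small nucleolar RNA symbols 10 were at 0, and these were all 10 that overlap an exon. Their summed level was 7.22 and 7.01 CPM in treated tau, 7.35 and 8.25 CPM in tau, and 9.79 and 10.2 CPM in control. Of these symbols, 19 microRNAs and 7 small nucleolar RNAs passed the filter on low counts, and none of those tested was called in any comparison.

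Snrpn (ENSMUSG00000102252.5), which encodes the spliceosomal protein SmN of neurons, spans chromosome 7, 59982495 to 60140219 on the minus strand. It had 322.5 and 326.7 CPM in the treated tau libraries, 404.3 and 405.5 CPM in the tau libraries, and 363.6 and 350 CPM in the control libraries. Treated tau was lowest, tau highest and control between them, and no groups overlapped. In treated tau against tau Snrpn fell to 324.6 ± 2.91 CPM in treated tau, against 404.9 ± 0.874 CPM in tau (SD, n = 2 each). Its log2 fold change was -0.32 ± 0.07, with an edgeR adjusted p of 0.0288. Lower calls made up 0.677% of all genes in that comparison. Snrpn did not pass in tau against control (0.18 ± 0.07, adjusted p = 0.452) or in treated tau against control (-0.14 ± 0.07, adjusted p = 0.361).

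The direction for Snrpn depended on how near-copies were counted. Snrpn shares 26.54% of its 50-mers with 5 other genes. Most of this, 21.18%, is shared with Gm38393, an overlapping coding gene on the same strand, which had 79.7 and 56.3 CPM in treated tau, 72.4 and 81.1 CPM in tau, and 54.7 and 80.4 CPM in control. Gm38393 was not called in treated tau against tau (-0.17 ± 0.19, edgeR adjusted p = 0.842). Smaller shares fall to 2 processed pseudogenes on the minus strand of chromosome 14, 3.09% to Gm5802 (62540493 to 62541193) and 1.76% to Gm35595 (62541380 to 62541575). Another processed pseudogene, Gm18908 on the plus strand of chromosome 7, shares 4.84%. Gm18908 had 8 and 4 counts in treated tau, 6 and 0 in tau, and 2 and 2 in control. Snurf, an upstream reading frame of the same transcript whose exons overlap those of Snrpn, shares 7.93% and had 0 counts in every library. A stretch of the Snrpn coding sequence and its counterpart in Gm5802 are shown because reads from the shared run of 91 bases, in capitals, cannot be assigned by sequence to one gene. Both are from the GENCODE M21 transcripts; the Snrpn stretch joins 2 exons.
Snrpn chr7:59983413-59985063, minus strand: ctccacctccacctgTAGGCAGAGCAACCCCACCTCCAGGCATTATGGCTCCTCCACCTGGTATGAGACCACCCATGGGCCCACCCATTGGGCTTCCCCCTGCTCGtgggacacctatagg
Gm5802 chr14:62540545-62540665, minus strand: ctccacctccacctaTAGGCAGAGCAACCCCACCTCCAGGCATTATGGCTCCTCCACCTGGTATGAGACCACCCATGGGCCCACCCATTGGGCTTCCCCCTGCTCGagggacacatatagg
Gm5802 had 127.8 and 129.4 CPM in treated tau, 22.17 and 22.12 CPM in tau, and 21.11 and 20.97 CPM in control. It rose in treated tau against tau by 2.54 ± 0.09 on the log2 scale (edgeR adjusted p = 6.16e-07). Gm35595 had 49.57 and 51.9 CPM in treated tau, 10.64 and 11.98 CPM in tau, and 10.18 and 10.94 CPM in control, a rise of 2.17 ± 0.12 (adjusted p = 1.08e-05). Over all genes, higher calls in that comparison went from 639 to 33 without pseudogenes. Between the means of treated tau and tau, Snrpn differed by -80.3 CPM, and Gm5802 and Gm35595 together by 146 CPM. The sum of Snrpn and both pseudogenes was 499.9 and 507.9 CPM in treated tau, 437.1 and 439.6 CPM in tau, and 394.9 and 381.9 CPM in control, so the order of treated tau and tau turned round. With all of its sharing genes added to Snrpn, an alternative chosen after seeing the data, the log2 fold change was 0.15 for treated tau against tau (adjusted p = 0.402) and 0.32 for treated tau against control (adjusted p = 0.0203). The treated tau tables also list other gene symbols than the other 4 tables, 494 found only there against 789 found only in the others. How far the counting differed between the tables was not tested. Leaving out any 1 of the 4 treated tau and tau libraries left the log2 fold change of Snrpn itself at -0.32 to -0.31, and Snrpn did not pass. It was -0.31 when pseudogenes left the table (edgeR adjusted p = 0.138). That setting drops the pseudogene rows and keeps the Snrpn counts as they were, so it cannot show how shared reads were assigned.

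**Figure D4:**
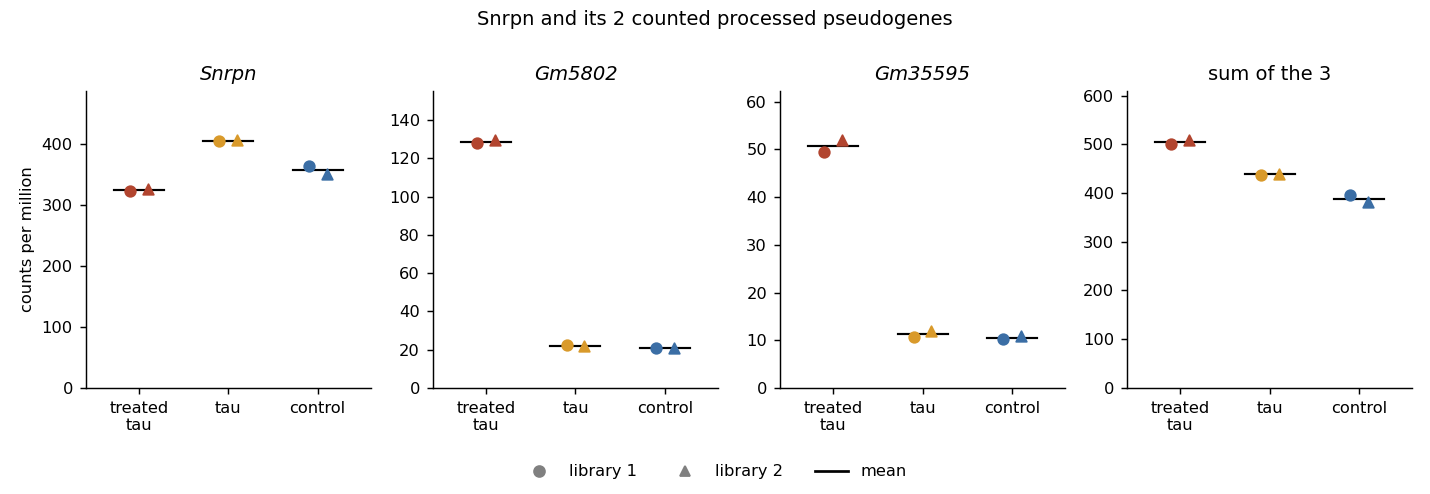
CPM (vertical axis, from 0) of Snrpn, of the processed pseudogenes Gm5802 and Gm35595, and of their sum, by library (circles library 1, triangles library 2, bars group means of 2) in treated tau, tau and control. Snrpn is lowest in treated tau, both pseudogenes are highest there, and the sum is highest there at 499.9 and 507.9.

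Peg3 (ENSMUSG00000002265.16), a zinc finger protein gene on chromosome 7, 6703892 to 6730431 on the minus strand, was the most even across tau and control. It had 538.2 and 655.9 CPM in treated tau, 538.1 and 554.7 CPM in tau, and 532.7 and 534.9 CPM in control. Treated tau 2 was the highest library, and the log2 fold changes lay between 0.03 ± 0.09 and 0.16 ± 0.09, with edgeR adjusted p of 0.437 or more. Its promoter window is shown as the only other one of the 13 that held the octamer marked above.
Peg3 chr7:6730370-6730669, minus strand: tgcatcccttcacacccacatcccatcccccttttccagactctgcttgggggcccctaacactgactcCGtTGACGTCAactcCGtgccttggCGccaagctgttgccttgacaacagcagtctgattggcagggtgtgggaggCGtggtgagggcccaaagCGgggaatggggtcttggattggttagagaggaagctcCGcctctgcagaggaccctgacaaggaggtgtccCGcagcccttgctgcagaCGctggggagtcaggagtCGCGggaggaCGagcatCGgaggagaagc
The octamer began at position -178 relative to the Peg3 start. Meg3 and Peg3, the transcripts with that octamer, stood at -0.34 and 0.03 (log2 fold change) in tau against control.

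Ndn (ENSMUSG00000033585.5), the MAGE family gene for necdin, lies on chromosome 7, 62346569 to 62350262 on the plus strand. It had 187.7 and 192.3 CPM in treated tau, 186.9 and 202.3 CPM in tau, and 174.1 and 166.6 CPM in control. Both treated tau and both tau libraries exceeded both controls. The log2 fold change was 0.16 ± 0.08 in treated tau against control (edgeR adjusted p = 0.356) and 0.19 ± 0.08 in tau against control (adjusted p = 0.471). Nnat (ENSMUSG00000067786.16), which encodes the small membrane protein neuronatin, lies on chromosome 2, 157560078 to 157562522 on the plus strand. Its values of 31.57 and 32.55 CPM in treated tau, 33.16 and 38 CPM in tau, and 29.32 and 38.42 CPM in control differed more between the control libraries than between group means. No comparison of Nnat had an edgeR adjusted p below 0.795.

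Malat1 (ENSMUSG00000092341.3), on chromosome 19, 5795690 to 5802672 on the minus strand, had 5671 and 6099 CPM in treated tau, 5918 and 6828 CPM in tau, and 6825 and 7541 CPM in control. Both treated tau libraries were below both control libraries, and tau overlapped both. Treated tau averaged 5885 ± 303 CPM and control 7183 ± 506 CPM (SD, n = 2 each), which differed by -0.29 ± 0.08 on the log2 scale with an edgeR adjusted p of 0.107. Malat1 alone among the 10 had an unadjusted p under 0.05 there, against 16.3% of all genes. The value was -0.35 without the library labelled control 1 and -0.35 without the library labelled control 1 and tau 2 together, both leaving 1 control library. It was -0.21 without control 2, -0.23 without treated tau 1 and -0.27 without pseudogenes (edgeR adjusted p = 0.27). Tau against control was -0.17 ± 0.08 (adjusted p = 0.519), with -0.068 without tau 1, -0.28 without tau 2 and -0.099 without control 2. Treated tau against tau was -0.11 ± 0.08 (adjusted p = 0.704), with -0.21 to -0.0045 when 1 library was left out.

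Neat1 (ENSMUSG00000092274.3) lies on the same strand of chromosome 19, 5824708 to 5845478. Treated tau had 39.78 and 31.1 CPM, tau 30.9 and 36.28 CPM, and control 37.49 and 30.65 CPM. Every pair of groups overlapped, and the log2 fold changes lay between -0.03 ± 0.15 and 0.09 ± 0.15. Miat (ENSMUSG00000097767.8), on chromosome 5, 112213228 to 112229395 on the minus strand, had 165.8 and 148.9 CPM in treated tau, 123.5 and 126.3 CPM in tau, and 144.1 and 185.4 CPM in control. Both tau libraries were lowest. The log2 fold change was -0.4 ± 0.12 for tau against control (edgeR adjusted p = 0.441), -0.57 without the library labelled control 1 and -0.21 without control 2. Without the library labelled control 1 and tau 2 together, which left 1 library in each of tau and control, it was -0.58. It was 0.33 ± 0.12 for treated tau against tau (adjusted p = 0.238). Miat shares 24.23% of its 50-mers with 5 genes, mostly its antisense neighbour Gm26953. Adding the counts of all 5 to Miat took control 2, the library with the most added, to 4757 counts, against 4729 without them. Reads that counting assigned to no gene are in neither number, so the sum cannot show how far this sharing affected Miat.

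Gene lists for the bodies in which Malat1 and Neat1 reside were set beside them. Of 15 paraspeckle protein genes, 1 fell in treated tau against tau (0.677% of all genes called lower) and in treated tau against control (0.899%), and none was called in tau against control. This was Ewsr1, an RNA-binding protein of the FET family, with 113.5 and 98.36 CPM in treated tau, 149.3 and 154.2 CPM in tau, and 149.7 and 147.8 CPM in control. Its log2 fold change was -0.52 ± 0.09 for treated tau against tau (edgeR adjusted p = 0.0093) and -0.49 ± 0.09 for treated tau against control (adjusted p = 0.0113). Without pseudogenes, lower calls over all genes went from 140 to 34 and from 186 to 30 in these comparisons. Whether Ewsr1 stayed was not tested. Matr3 and Hnrnpk had the smallest p in tau against control, at 0.25 ± 0.07 and 0.23 ± 0.07. The median of the 15 lay between -0.01 and 0.04 in the 3 comparisons, against -0.007 to -0.003 over all genes. None of the 20 genes of the nuclear speckle list was called, and the medians of that list lay between -0.05 and -0.03. It also holds RNA-binding protein genes, such as Qk and Celf4, that are not known as residents of speckles. Srrm2, a scaffold of speckles, had 324.8 and 341.8 CPM in treated tau, 261.3 and 284.6 CPM in tau, and 329.9 and 358 CPM in control, with a log2 fold change of 0.29 ± 0.08 in treated tau against tau (adjusted p = 0.103) and of -0.33 ± 0.08 in tau against control (0.441). Among splicing factors of the list, U2af2 stood at -0.22 ± 0.09 in treated tau against tau (adjusted p = 0.307), Srsf5 at -0.33 ± 0.1 and Srrm1 at -0.32 ± 0.1 in treated tau against control (0.135 and 0.156). Qk, an RNA-binding protein gene high in oligodendrocytes, stood at 0.24 ± 0.11 in tau against control (0.503) and had its highest level, 552.9 CPM, in tau 2, the library highest in oligodendrocyte markers.

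The other imprinted genes gave 1 call among 37 tested, in treated tau against control, where 4.22% of all genes were called and 0.899% called lower. Kcnq1ot1, the paternally expressed antisense RNA of the Kcnq1 domain, had 159.2 and 157.5 CPM in treated tau, 200 and 218.6 CPM in tau, and 206.2 and 266.3 CPM in control. It fell by 0.58 on the log2 scale in treated tau against control (edgeR adjusted p = 0.0186), and its value was -0.4 ± 0.11 in treated tau against tau (adjusted p = 0.118). It was the only call among 21 genes listed as paternally expressed. Their median log2 fold changes were 0.06 in tau against control, -0.03 in treated tau against tau and 0.01 in treated tau against control. Nap1l5, a nucleosome assembly protein gene of that list, had 360.4 and 359.1 CPM in treated tau, 364.3 and 369 CPM in tau, and 293.1 and 305.2 CPM in control (0.29 ± 0.07 for tau against control, adjusted p = 0.441). Dlk1, a coding gene of the domain that holds Meg3, had at most 1.156 CPM in any library (1.88 ± 0.59 in tau against control, adjusted p = 0.441). Peg13, a noncoding RNA within Trappc9, had 315.8 and 341.2 CPM in treated tau, 268.5 and 277.4 CPM in tau, and 269 and 275.3 CPM in control (0.27 ± 0.07 in treated tau against tau, adjusted p = 0.102). None of the 16 genes listed as maternally expressed was called, and expression by parental copy was not measured in this tissue. Kcnk9, a potassium channel gene, had 112.5 and 107.1 CPM in treated tau, 96.32 and 91.47 CPM in tau, and 109 and 124 CPM in control. Its log2 fold change was 0.23 ± 0.09 in treated tau against tau (edgeR adjusted p = 0.338) and -0.31 ± 0.09 in tau against control (0.441). The other genes of smallest p in that list were Gnas, a G protein subunit gene (-0.26 ± 0.12 in tau against control, adjusted p = 0.504), and Ppp1r9a, which encodes the actin-binding protein neurabin (0.18 ± 0.07 in treated tau against control, adjusted p = 0.198). Atp10a, a lipid flippase gene, stood at -0.31 ± 0.17 in treated tau against control (adjusted p = 0.412), and Asb4, below 1 CPM throughout, at -1.26 ± 0.54 in treated tau against tau (adjusted p = 0.397).

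Among 23 other long noncoding RNAs tested, 3 were called, all lower in treated tau against control, where 0.899% of all genes were called lower. Besides Kcnq1ot1 these were Firre, an X-linked RNA that shapes nuclear architecture, and Gm26917. Firre had 29.37 and 23.3 CPM in treated tau, 31.68 and 36.28 CPM in tau, and 40.93 and 38.3 CPM in control (log2 fold change -0.58 ± 0.13 for treated tau against control, edgeR adjusted p = 0.0356). Gm26917 had 1247 and 1443 CPM in treated tau, 1464 and 1521 CPM in tau, and 1925 and 1656 CPM in control (-0.41 ± 0.09, adjusted p = 0.0359). Over all genes, lower calls in that comparison went from 186 to 30 without pseudogenes, and whether these 3 stayed was not tested. The median of the list, which includes Xist, was -0.23 for treated tau against control (-0.007 over all genes), with 19 of 23 below 0. It was -0.15 for treated tau against tau (-0.006) and -0.08 for tau against control (-0.003). Snhg11, a small nucleolar RNA host, had 591.9 and 569.3 CPM in treated tau, 508.1 and 478.8 CPM in tau, and 680.5 and 681 CPM in control (-0.46 ± 0.07 for tau against control, adjusted p = 0.233). In the same comparison 2610307P16Rik, below 1 CPM throughout, stood at -2.65 ± 0.82 (adjusted p = 0.441). In treated tau against tau the smallest p belonged to Xist, used above as the check of sex (-6.63 ± 1.75, adjusted p = 0.0855), and to Peg13.

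The genes whose profile over the 6 libraries was most like that of Meg3, among 10831 genes with an average log2 CPM of at least 3, were Tcof1, Ctif and Vars. Their centred log2 CPM differed from that of Meg3 by 0.023, 0.025 and 0.028 on average over the 6 libraries. Tcof1 had 20.26 and 20.58 CPM in treated tau, 18.07 and 18 CPM in tau, and 20.17 and 24.11 CPM in control. Nearest to Malat1 were Mtg2, 1810026B05Rik and 5330434G04Rik, at 0.026, 0.027 and 0.03. Mtg2 had 8.768 and 9.843 CPM in treated tau, 9.855 and 11.23 CPM in tau, and 11.05 and 12.03 CPM in control.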

How the data were processed

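The authors deposited 1 table of raw read counts per library, with a whole number for each gene symbol. Per the labels' protocols, ribosomal RNA was removed, libraries kept the strand, Cutadapt trimmed the reads and TopHat2 mapped them against RefSeq mRNAs of the mouse. SAMtools, featureCounts, edgeR and the build mm10 appear in the submitters' processing notes. Whether counting used the strand, and how it treated reads that map to several places, was not stated there or in the labels (not given in the sources used here).

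All 53640 symbols common to all tables went through filterByExpr (minimum count 10) and TMM scaling and were fitted over all 6 libraries in edgeR 4.0.16 under R 4.3.3 (glmQLFit and glmQLFTest, the quasi-likelihood test, two-sided), with no covariate and 3 residual degrees of freedom. Adjusted p is the Benjamini-Hochberg value over 20694 genes, and genes were called under 0.05; with 2 libraries a group these p-values measure only the spread between these libraries. DESeq2 1.42.0 was an alternative. Annotation and shared 50-mers came from GENCODE M21, and 20557 tested symbols matched. Promoters and microRNAs came from RefSeq tables. Replicates of a group differed by a chi-square per degree of freedom of 11.1 to 15.9, so none was a repeat deposit.

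The transcripts and lists were chosen with earlier results of these data known. The 10 transcripts are named throughout. Of each of the 5 lists of other imprinted genes, long noncoding RNAs, paraspeckle and nuclear speckle genes the text names up to 4 called genes with the smallest p, or, with none called, the 2 with the smallest p as values, in each comparison. The 11 cell type marker lists serve as checks of the libraries, with sums given where a library stood apart and every call counted. For Meg3 and Malat1 it names the 3 genes of most similar profile. The Rian to Meg3 ratio and the sums with sharing genes were chosen after seeing the data. Depth was 17690811 to 34774643 counts per library, and counts carry no molecular identifiers.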

Additional observations from a re-analysis of the deposited data

How the results depend on the processing

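Of 540 recomputed log2 fold changes of the 10 transcripts, 501 kept their direction and their side of the threshold under 17 other settings and 1 added after seeing the data. Leaving out 1 library at a time, the number of the 10 transcripts called ranged from 0 to 0 in tau against control, 0 to 2 in treated tau against tau and 0 to 0 in treated tau against control. Calls over all genes ranged from 0 to 98, 354 to 840 and 495 to 817 in the same order. Without the library labelled control 1 and tau 2 together, 2 of the 10 (Meg3, Miat) and 130 genes were called in tau against control, and 1 of the 10 (Malat1) in treated tau against control. DESeq2 called 1 of the 10 (Meg3) and 55 genes in tau against control. For treated tau against tau, 0 of the 10 were called without pseudogenes (67 genes), or among protein coding genes and the transcripts (45 genes). Snrpn stood at -0.31 in both (edgeR adjusted p = 0.138 and 0.145), and neither setting changes its own counts. With sharing genes summed 0 of the 10 were called there, and with only the 2 groups compared 2 were. For treated tau against control, calls over all genes were 63 without pseudogenes and 40 among protein coding genes, and 1 of the 10 was called with sharing genes summed (Snrpn). The cause of these changes was not tested.

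With the replicate block, 1 of the 10 was called in treated tau against control (Malat1, adjusted p = 0.0339). The block changed no other call among the 10. Deviations of same-numbered libraries correlated at 0.01, -0.01 and 0.07, so no pairing by number was seen. With 2 libraries a group these correlations cannot exclude a pairing.

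Some signs turned. Snrpn with sharing genes summed was 0.15 in treated tau against tau and 0.32 in treated tau against control. In tau against control, leaving out 1 library gave -0.11 to 0.27 for Nnat (lowest without the library labelled control 1, -0.028 without tau 2) and -0.17 to 0.13 for Neat1. Without the library labelled control 1 and tau 2 together Nnat was -0.21. Neat1 was 0.13 without the library labelled control 1, 0.095 without tau 1 and 0.014 without the library labelled control 1 and tau 2. In treated tau against tau, the ranges were -0.018 to 0.27 for Peg3, -0.089 to 0.027 for Ndn and -0.1 to 0.25 for Neat1 (-0.029 without tau 1), and Ndn was 0.025 without the library labelled control 1 and tau 2. In treated tau against control, Rian was 0.005 with no filter and 0.00036 without pseudogenes, and Mirg -0.0088 at a minimum count of 50 and -0.0047 with thinned counts. Leaving out 1 library there gave -0.15 to 0.15 for Rian (0.02 without treated tau 1), -0.054 to 0.11 for Mirg, -0.26 to 0.13 for Nnat, -0.12 to 0.23 for Neat1 (-0.072 without control 2) and -0.23 to 0.13 for Miat (0.016 without treated tau 2).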

Other observations

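The small nucleolar RNAs of the Snrpn domain were hardly counted. Of 19 such symbols in the tables none was tested, and the one with most counts, Snord116l12, had 6 and 1 counts in treated tau, 7 and 2 in tau, and 5 and 1 in control.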
